A study of Mus musculus with 34 samples.

Results

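The sites described here are 214 BATF peaks at which binding was higher in mouse regulatory T (Treg) cells than in conventional CD4 T (Tconv) cells and was kept at 0.8 times the control level or more in Treg cells with the Foxp3 mutation R397W. They were chosen from the 9973 peaks of a BATF chromatin immunoprecipitation sequencing (ChIP-seq) table by 3 conditions on the deposited normalised values. The mean of the Treg libraries plus 1 was at least 2 times that of the Tconv libraries plus 1, the mean of the R397W libraries plus 1 was at least 0.8 times that of their controls plus 1, and the control mean was at least 20. Of the 2078 peaks that met the first and last conditions, the 214 kept sites made up 10.3%, and the remaining 1864 are called reduced sites. Another 6462 peaks had a control mean of at least 20 but a Treg to Tconv ratio under 2, and are called other sites. The BATF values in these 8 libraries chose the members, so they are given below as a description without a test.

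BATF is a factor of the AP-1 family that lacks an activation domain of its own. It pairs with JUN proteins on AP-1 elements and binds together with IRF4 on composite elements made of an AP-1 and an IRF motif. BATF and IRF4 are both known for their part in the differentiation of effector Treg cells in mice. Foxp3 is the forkhead factor that defines the Treg lineage, and R397W replaces an arginine of its DNA-binding forkhead domain.

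All cells were CD4 T cells sorted fresh from spleen and lymph nodes (strain C57BL6/J), with human CD2 (hCD2) as a reporter at the Foxp3 locus. R397W Treg cells were the CD4+hCD2+GFP- fraction of Foxp3R397W-IRES-hCD2/Foxp3-IRES-GFP animals. Their controls were the same fraction of Foxp3WT-IRES-hCD2/Foxp3-IRES-GFP mice, and each group had 2 BATF libraries. Both genotypes also carried a wild-type Foxp3 allele marked with GFP, and the sorted cells were negative for that GFP. Treg (CD4+hCD2+) and Tconv (CD4+hCD2-) cells of Foxp3-IRES-hCD2 mice gave 2 BATF and 4 IRF4 libraries each. Foxp3 was measured in Treg cells of Foxp3-IRES-hCD2.Batf-/- mice and of Foxp3-IRES-hCD2 mice (2 libraries per group), and in effector (CD4+hCD2+CCR7loCD62Llo) and central (CD4+hCD2+CCR7hiCD62LhiCD44lo) Treg cells of Foxp3-IRES-hCD2 mice, also with 2 libraries per group. The labels give no age, and do not say which libraries came from separate animals, so p-values measure the spread between libraries, which may be technical.

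The 8 BATF libraries held 144319 to 1009580 reads in peaks, and the library of the second control column was the shallowest. The median kept site had 11 reads in that library, where 1 read is worth 3.46 deposited units, and 24 to 61.5 reads in the other Treg libraries. BATF peaks were assigned to 4 of 6 Treg marker genes. Their summed values were 245 and 299 in R397W Treg and 760 and 844 in control Treg libraries, and all 8 of these peaks were reduced sites. In the libraries of Foxp3-IRES-hCD2 mice the sums were 592 and 464 in Treg and 76.1 and 57.6 in Tconv cells. No kept site was assigned to any of 8 B cell, 10 myeloid or 9 CD8 and NK cell markers. These markers had only 1, 2 and 0 Treg-preferred peaks, so the absence of kept sites says little. Peaks at 1 of the 8 B cell markers summed to 87.2 and 60.3 in R397W Treg and 66.3 and 79.5 in control Treg libraries. Peaks at 2 of the 10 myeloid markers summed to 32.5 and 31.9 in R397W Treg and 92.5 and 83.0 in control Treg libraries. Peaks at 3 of the 9 CD8 and NK cell markers summed to 111 and 89.4 in R397W Treg and 97.2 and 125 in control Treg libraries. What part other cells had in any result was not tested. In bulk sorted cells, fewer cells that bind at a site and less binding per cell cannot be told apart.

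Sequence could be read only at promoters, where 14 of the 214 kept sites (6.54%) overlapped a RefSeq promoter window. Such a window runs from 250 bases before a transcription start site to beyond it. Only the 250 bases before the start site were searched, and they need not lie under the peak. The AP-1 element TGANTCA, searched on both strands, was found in 3 of these 14 windows (21.4%), beside 10 of 45 windows at reduced sites (22.2%), 103 of 2704 at other sites (3.81%) and 2217 of all 32851 windows (6.75%). The 3 windows with a match are printed because they show the element under a kept site, with the match in capitals, and the window of Plagl1, a zinc finger factor gene, is printed as one without a match. All are given 5′ to 3′ on the strand of the gene, in GRCm38.p6.
P2ry10, chrX:107088242-107088491, plus strand: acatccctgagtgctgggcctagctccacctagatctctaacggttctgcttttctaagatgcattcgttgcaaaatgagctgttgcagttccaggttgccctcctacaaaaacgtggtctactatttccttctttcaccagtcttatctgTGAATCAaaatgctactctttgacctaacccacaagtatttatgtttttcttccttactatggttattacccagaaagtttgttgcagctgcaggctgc
2010204K13Rik, chrX:7422989-7423238, minus strand: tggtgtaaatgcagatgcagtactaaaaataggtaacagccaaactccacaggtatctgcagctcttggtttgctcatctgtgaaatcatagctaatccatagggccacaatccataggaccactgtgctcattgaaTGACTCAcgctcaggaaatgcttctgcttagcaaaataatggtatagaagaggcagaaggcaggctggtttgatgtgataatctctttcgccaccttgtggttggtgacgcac
Gm40948, chr13:52083608-52083857, minus strand: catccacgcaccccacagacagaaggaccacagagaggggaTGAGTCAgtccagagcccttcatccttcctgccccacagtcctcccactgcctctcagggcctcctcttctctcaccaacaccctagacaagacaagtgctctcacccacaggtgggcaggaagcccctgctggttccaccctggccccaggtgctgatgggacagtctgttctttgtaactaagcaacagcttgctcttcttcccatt
Plagl1, chr10:13090582-13090831, plus strand: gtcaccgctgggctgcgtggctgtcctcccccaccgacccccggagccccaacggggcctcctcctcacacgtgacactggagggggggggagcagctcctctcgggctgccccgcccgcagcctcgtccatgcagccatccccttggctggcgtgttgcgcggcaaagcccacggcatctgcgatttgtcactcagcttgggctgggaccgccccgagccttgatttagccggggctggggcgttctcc

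The matches read TGAATCA at P2ry10, TGACTCA at 2010204K13Rik and TGAGTCA at Gm40948, and began 99, 113 and 209 bases before the start site. All 3 lay inside the BATF peak. P2ry10 encodes a G protein-coupled receptor of lymphocytes, and its kept site averaged 41.6 in R397W Treg and 35.6 in control Treg cells, and 36.6 in Treg and 15.4 in Tconv cells. The Runx element TGTGGNT was found in 7 of the 14 kept windows (50%), in 28.9% of the windows at reduced sites and in 17.0% of all windows. The CRE element was found in 0 of the 14, 0 of the 45 windows at reduced sites and 1.55% of all windows, and the forkhead element TGTTTNC in 2 of them (14.3%), beside 17.8% of all windows. A match describes the letters in the window and is not a measured site.

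Most kept sites lay away from gene ends. Of the 214, 146 (68.2%) were over 10000 bp from the nearest end of a protein-coding gene, 113 (52.8%) lay in a gene body and 19 (8.88%) were within 1000 bp of a gene end. Among the 1864 reduced sites these shares were 70.9%, 55.8% and 4.56%. Other sites differed from both, with 26.9% over 10000 bp away and 49.7% within 1000 bp. Each site carries the name of the protein-coding gene whose body was closest, up to 100000 bp away, whether or not it regulates that gene, and exons and introns were not used here. In this way 190 kept sites were assigned to 178 genes, of which 167 had 1 kept site, 10 had 2 and Myb had 3. At 74 of these genes there was also a reduced site.

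BATF at the kept sites had a median of 38.6 in R397W Treg and 38.4 in control Treg cells, and of 36.2 in Treg and 12.2 in Tconv cells. At the reduced sites the medians were 22.0 in R397W Treg and 54.9 in control Treg cells, and 39.8 in Treg and 6.87 in Tconv cells. The R397W to control ratio of the kept sites had a median of 0.952 and reached 2.32, and 81 sites had an R397W mean at or above the control mean. At 17 sites both R397W libraries lay above both control libraries. At 60 sites (28.0%) all 4 ratios between single libraries were at least 0.8. Over all 9973 peaks, 4914 had an R397W mean at or above the control mean. Both R397W libraries lay above both control libraries at 2261 of these 9973 peaks. All 4 ratios between single libraries were at least 0.8 at 4057 of them (40.7%). The median R397W to control ratio was 0.992 over all peaks, 1.07 at other sites and 0.423 at reduced sites. By this median, kept sites lay below other sites. The median ratio of control to the Treg libraries of Foxp3-IRES-hCD2 mice was 0.996 at kept sites and 1.36 at reduced sites. The control mean is the denominator of the ratio that split the 2 sets. A higher control level at reduced sites thus belongs at least in part to the choice of the sites. The rule asked for a Treg to Tconv ratio of at least 2 and an R397W to control ratio of at least 0.8. R397W levels above Tconv at kept sites were thus largely set by the choice. Both R397W libraries exceeded both Tconv libraries at 208 of 214 kept sites (97.2%) and at 1464 of 1864 reduced sites (78.5%). Over all 9973 peaks this share was 29.2%.

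**Figure D1:**
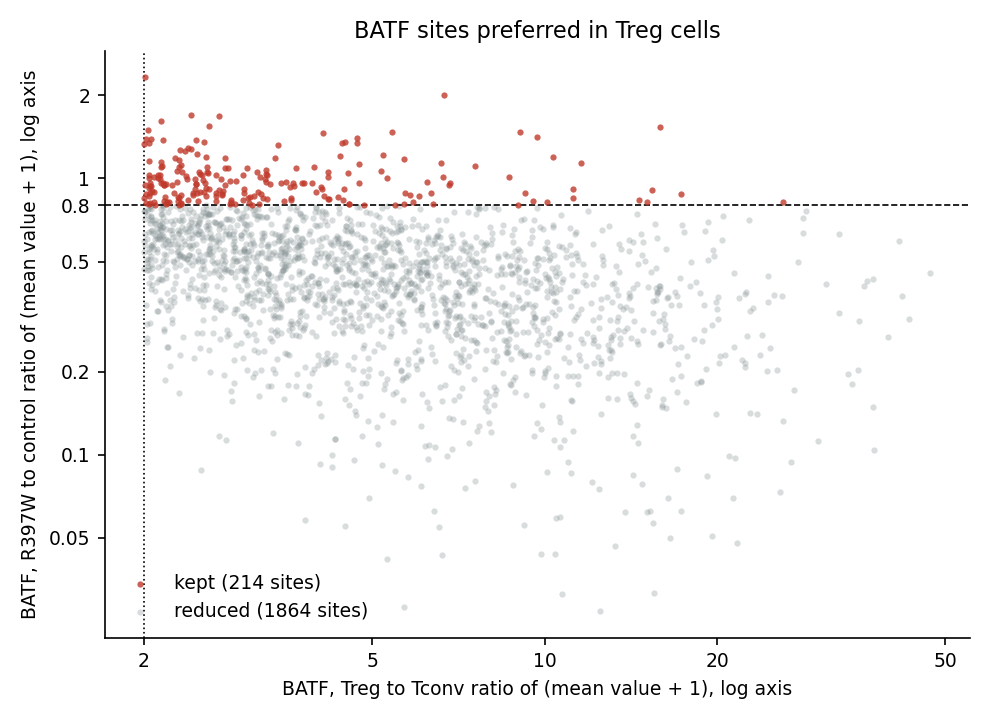
Each point is 1 BATF site with a Treg to Tconv ratio of at least 2 and a control mean of at least 20, plotted by that ratio (horizontal, log axis) and by the R397W to control ratio (vertical, log axis), with the thresholds of 2 (dotted) and 0.8 (dashed) drawn. The 214 kept sites (red) crowd toward low Treg to Tconv ratios, with a median of 2.77, against 5.00 for the 1864 reduced sites (grey).

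The share of sites that were kept was largest where the Treg preference was smallest. It was 22.7% (120 of 529) at Treg to Tconv ratios of 2 to 3, 9.83% at 3 to 5, 4.21% at 5 to 10 and 3.13% (11 of 352) at 10 or more. It was also larger at weakly bound sites, with 20% (121 of 605) at control means of 20 to 40, 7.61% at 40 to 80 and 3.47% (16 of 461) at 80 or more. The control mean is the denominator of the R397W to control ratio, so the shares by control mean belong to the choice of the sites. They are not a separate result. The Treg to Tconv ratio shares no library with the R397W to control ratio. It was also part of the rule, and the shares by that ratio were not tested.

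The choice was made on 2 libraries per group, and a reading in libraries that took no part in it gave lower ratios. When sites were chosen with 1 R397W and 1 control library, 215 to 334 were chosen, with median ratios of 0.958 to 0.989. In the R397W and control libraries held out, the median ratio of the same sites was 0.611 to 0.699, and 28.2% to 40% of them reached 0.8. The base for comparison was all sites with a Treg to Tconv ratio of at least 2 and at least 20 in the control library used to choose. Of these 2044 or 2065 sites, which include the chosen ones, 12.1% to 16.7% reached 0.8 in the same held-out libraries. Many sites lay close to the cut. There were 66 sites within 10% above the R397W to control ratio of 0.8 and 107 within 10% below it, and for the Treg to Tconv ratio these numbers were 45 and 56. The site at Aebp2, with a ratio of 0.80, was the last inside, and a site at Vgll4, also at 0.80 after rounding, was the first outside.

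At the 10 kept sites with the highest control means, of which 2 had no gene within 100000 bp, every R397W and control library lay above both Tconv libraries. The choice of the sites largely set this order. The strongest lay in Lnx2, which encodes a ubiquitin ligase (chr5:147063234-147063634). It had 157 and 134 in R397W Treg and 174 and 187 in control Treg libraries, and 195 and 182 in Treg and 47.9 and 69.4 in Tconv libraries. The R397W libraries lay below the control libraries there without overlap, at a ratio of 0.809.

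The site in Nr4a2 (chr2:57116583-57116983), an orphan nuclear receptor induced by T cell receptor signals, had 142 and 180 in R397W Treg and 191 and 152 in control Treg libraries. Its values were 194 and 158 in Treg and 85.2 and 85.3 in Tconv libraries, so that the R397W and control libraries overlapped and both groups stood above Tconv. A site 89347 bp from Egln3 (chr12:54293221-54293621), a prolyl hydroxylase of hypoxia-inducible factors, had 133 and 139 in R397W Treg and 98.7 and 183 in control Treg libraries. It had 189 and 133 in Treg and 74.7 and 65.0 in Tconv libraries, and the R397W libraries fell between the control libraries. In Btla, an inhibitory receptor of lymphocytes (chr16:45251785-45252185), values were 111 and 110.2 in R397W Treg and 137 and 125 in control Treg libraries, and 116.1 and 116.2 in Treg and 29.6 and 40.9 in Tconv libraries. In Rgs1, a regulator of G protein signalling (chr1:144248998-144249398), they were 83.8 and 99.8 in R397W Treg and 103 and 125 in control Treg libraries, and 123 and 131 in Treg and 26.1 and 28.1 in Tconv libraries. At Btla and Rgs1 the R397W libraries lay below the controls and far above Tconv. The position above Tconv at all these sites was largely set by the rule that chose them.

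**Figure D2:**
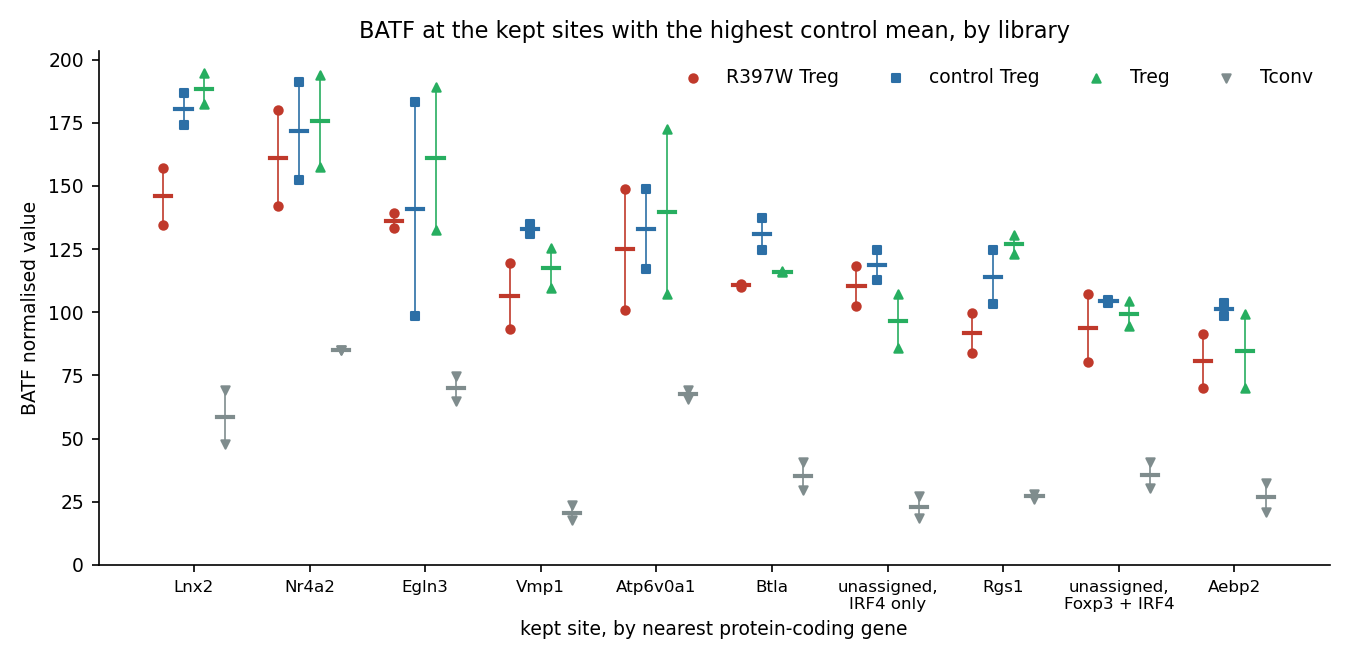
BATF normalised value (vertical axis, from 0) in each library at the 10 kept sites with the highest control mean, with R397W Treg (red circles), control Treg (blue squares), Treg (green triangles) and Tconv (grey triangles) libraries side by side and a short bar at each mean of 2. At all 10 sites every R397W library lies above both Tconv libraries, which the choice of the sites largely set. At Vmp1 the values are 120 and 93.6 in R397W Treg and 17.6 and 23.7 in Tconv libraries.

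The 5 sites with the highest R397W to control ratios had control means of 21.9 to 30.2, below the median of the kept sites. They were picked by a ratio whose denominator is the control mean. Low control and high R397W values there thus belong at least in part to that pick. In the second control column 1 read is worth 3.46 units, so the control values rest on few reads. In Pou2f2, which encodes the octamer factor Oct-2 (chr7:25179635-25180035), BATF was 42.7 and 61.7 in R397W Treg and 23.1 and 20.8 in control Treg libraries. The Treg libraries of Foxp3-IRES-hCD2 mice had 48.8 and 40.7 there, and the Tconv libraries 21.1 and 22.4. The R397W values were thus near those of the Treg libraries, and the control values near those of the Tconv libraries.

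In Ikzf3, which encodes the Ikaros family factor Aiolos (chr11:98480033-98480433), BATF was 49.6 and 63.8 in R397W Treg and 27.8 and 27.7 in control Treg libraries. There the Treg libraries had 31.6 and 25.6 and the Tconv libraries 4.23 and 2.64, so that the R397W libraries were above all others. This site too was picked by its R397W to control ratio. The next ratios were 1.69 at Lasp1, a LIM domain protein of the actin cytoskeleton, 1.69 at Hs1bp3 and 1.62 at Ssh1, a phosphatase of cofilin. At Lasp1 and Ssh1 the 2 R397W libraries were far apart, with 27.4 and 74.1 at Lasp1 and 32.5 and 66.5 at Ssh1.

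A few kept sites were nearly free of BATF in Tconv cells. At Mchr1 (chr15:81254198-81254598), a receptor of melanin-concentrating hormone, both Tconv libraries were at 0, while the values were 30.8 and 7.62 in R397W Treg and 23.1 and 24.2 in control Treg libraries, and 23.2 and 26.9 in Treg libraries. The R397W libraries disagreed at this site. In Tpmt, thiopurine methyltransferase (chr13:47030749-47031149), values were 23.9 and 28.4 in R397W Treg and 35.5 and 24.2 in control Treg libraries, and 32.7 and 19.7 in Treg and 0.704 and 0.439 in Tconv libraries, which is 1 read in each Tconv library. Prr5l, which encodes a partner of the mTORC2 kinase complex, had 2 such sites. The first (chr2:101797188-101797588) had 59.8 and 41.6 in R397W Treg and 58.6 and 65.7 in control Treg libraries, against 4.23 and 0.879 in Tconv libraries. The second (chr2:101819388-101819788) had 51.3 and 37.4 in R397W Treg and 26.2 and 31.1 in control Treg libraries, against 0 and 0.879 in Tconv libraries, and its R397W values were above both controls.

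Myb, a transcription factor of lymphoid progenitors and T cells, was the gene with most kept sites. All lay outside the gene, at 17300, 39298 and 39793 bp from it, and the last 2 were neighbouring peaks. One of its sites (chr10:21178284-21178684) had 47.9 and 39.5 in R397W Treg and 24.7 and 31.1 in control Treg libraries. A second (chr10:21200282-21200682) had 22.2 and 30.5 in R397W Treg and 27.8 and 38.0 in control Treg libraries. The third (chr10:21200777-21201177) had 37.6 and 34.6 in R397W Treg and 18.5 and 55.3 in control Treg libraries. Only the first of the 3 was higher in both R397W libraries, and no reduced site was assigned to Myb. Il2rb, the beta chain of the interleukin 2 receptor, had 2 kept sites and 1 reduced site. Its kept site outside the gene had 56.4 and 43.0 in R397W Treg and 47.8 and 48.4 in control Treg libraries, and 23.9 and 22.9 in Tconv libraries. Foxp1, a forkhead factor of naive T cells, had 2 kept and 3 reduced sites.

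The lists of genes with known roles in T cells held 0 to 5 kept sites each. Genes of the effector Treg program had 3 kept and 60 reduced sites, a kept share of 4.76%, beside 10.3% over all Treg-preferred sites. The kept ones were at Bhlhe40, a helix-loop-helix repressor, Ccr2, a chemokine receptor, and Il10, the anti-inflammatory cytokine. Each of these genes had 1 kept site, beside 4 reduced sites at Bhlhe40, 6 at Il10 and 0 at Ccr2. The kept site at Il10 had 25.6 and 43.7 in R397W Treg and 44.7 and 41.5 in control Treg libraries, and 5.63 and 3.52 in Tconv libraries. Genes of central or naive T cells had 5 kept and 16 reduced sites (23.8% kept). The kept ones were at the transcription factors Bach2, Foxp1 and Klf2 and at Id3, which inhibits DNA binding by E proteins. Bach2 also had 6 reduced sites and Foxp1 3, while Klf2 and Id3 had 0. Treg core genes had 4 kept and 12 reduced sites (25% kept), at Il2rb, Plagl1 and Socs2, a suppressor of cytokine signalling. Foxp3 partner factors had 3 kept and 13 reduced sites (18.8% kept), at Bcl11b, Ikzf3 and Runx1. Genes of T cell receptor and costimulatory signalling had 1 kept and 16 reduced sites, and genes of AP-1, BATF and IRF factors 0 kept and 9 reduced. T helper lineage genes had 1 kept site, at the cytokine Ifng, and 3 reduced sites. No kept site was assigned to Foxp3, Ikzf2, Ctla4, Il2ra or Nrp1. These counts are small, and the lists were not tested.

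The kept sites were then read in the IRF4 and Foxp3 data, which took no part in their choice. An IRF4 peak overlapped 120 kept sites (56.1%) and 1175 reduced sites (63.0%), beside 39.4% of other sites. A Foxp3 peak overlapped 65 kept sites (30.4%) and 643 reduced sites (34.5%), beside 20.9% of other sites. Both factors had a peak at 46 kept sites (21.5%) and neither at 75 (35.0%), against 25.7% and 28.2% of the reduced sites. These shares were not tested, since sites are not replicates.

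IRF4 was higher in Treg than in Tconv cells at 45 of the 120 kept sites with a peak (37.5%) and lower at 0, by limma with an adjusted p under 0.05. Over all 9134 IRF4 peaks, 15.8% were higher and 8.39% lower. With no adjustment for multiple testing, p was under 0.05 at 64 kept sites with a higher and 2 with a lower value, and edgeR and DESeq2 on the recovered reads each called 1 lower. The median log2 fold change was 0.74 at kept sites, 1.43 at reduced sites, of which 835 of 1175 (71.1%) were higher, and -0.26 at other sites. The median IRF4 value at kept sites was 28.1 in Treg and 17.0 in Tconv cells, and at reduced sites 31.3 in Treg and 12.8 in Tconv cells. Without Treg replicate 2, 28 kept sites were called higher.

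Tpmt had the smallest p among the kept sites. IRF4 there was 24.9, 17.4, 25.6 and 33.2 in Treg and 0, 3.48, 1.80 and 0 in Tconv libraries, with a log2 fold change of 3.77 ± 0.58 (SE, adjusted p = 6.3e-05). All 4 Treg libraries stood far above all 4 Tconv libraries. At Trib2, a pseudokinase (chr12:15821033-15821433), IRF4 was 32.3, 44.4, 49.2 and 41.8 in Treg and 16.2, 14.6, 8.12 and 11.4 in Tconv libraries, again without overlap (log2 fold change 1.68 ± 0.31, adjusted p = 3.7e-04). At a site 98899 bp from Spring1, a regulator of the SREBP pathway, the log2 fold change was 1.77 ± 0.36 (adjusted p = 8.7e-04). The site in Foxp1 (chr6:99057173-99057573) had 59.0, 65.0, 65.2 and 48.6 in Treg and 23.4, 33.4, 27.1 and 26.3 in Tconv libraries (log2 fold change 1.08 ± 0.24, adjusted p = 0.0018).

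Several of the strongest kept sites did not pass. At Nr4a2, IRF4 was 59.9, 31.7, 42.7 and 31.5 in Treg and 32.3, 36.9, 37.9 and 22.9 in Tconv libraries, which overlapped (log2 fold change 0.32 ± 0.27, adjusted p = 0.44). At Egln3 it was 116, 106, 103 and 88.6 in Treg and 148, 95.4, 103 and 107 in Tconv libraries (log2 fold change -0.12 ± 0.21, adjusted p = 0.74). Btla also overlapped (log2 fold change 0.29 ± 0.21, adjusted p = 0.35). At Lnx2 the log2 fold change was 0.86 ± 0.27 (adjusted p = 0.020). That call was lost without Treg replicate 2 or 3 or Tconv replicate 2 or 4 and in a fit without a trend, with adjusted p-values up to 0.079 over the alternatives.

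**Figure D3:**
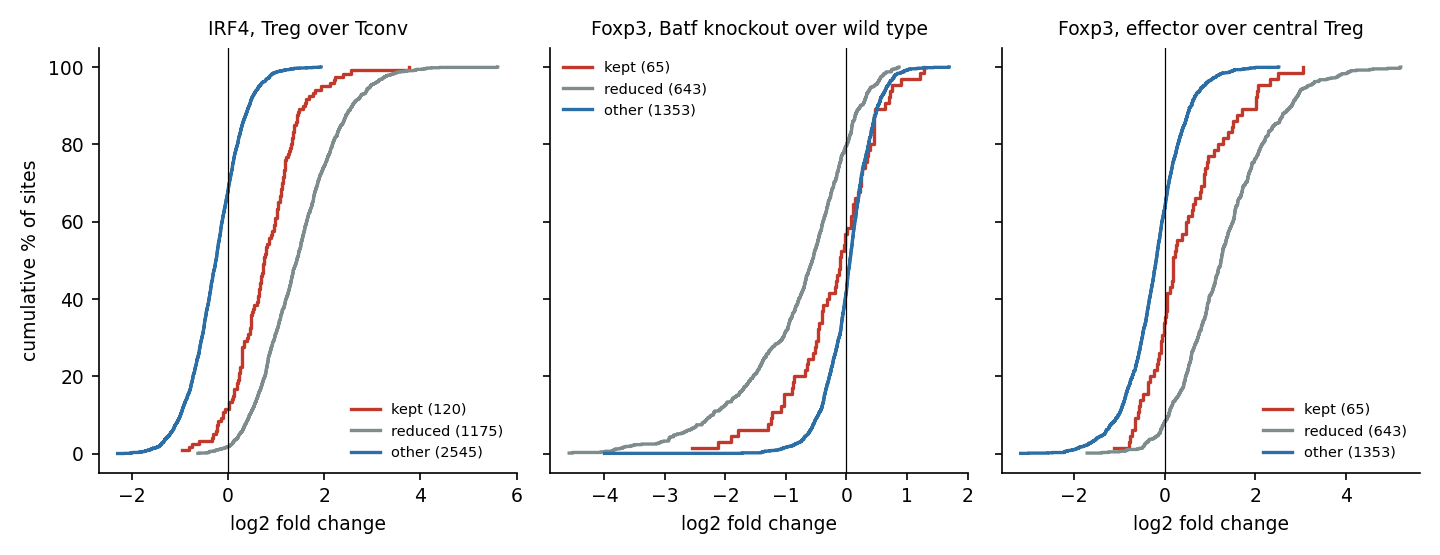
Cumulative percentage of sites (vertical axis) against the limma log2 fold change of the overlapping IRF4 or Foxp3 peak (horizontal axis), for kept (red), reduced (grey) and other (blue) sites, with the number of sites in brackets. In all 3 comparisons the kept sites lie between the reduced and the other sites at the median, for IRF4 at 0.74 against 1.43 and -0.26.

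Foxp3 at most kept sites was not called changed in Treg cells without Batf. Loss of BATF itself was not checked here. It was lower in Batf knockout than in wild-type Treg cells at 5 of 65 kept sites and higher at 2, by limma with an adjusted p under 0.05. Over all 6396 Foxp3 peaks, 3.91% were lower and 0.547% higher. At reduced sites 155 of 643 (24.1%) were lower and 0 higher. The median log2 fold change was -0.11 at kept sites, -0.56 at reduced sites and 0.05 over all peaks. The median Foxp3 value at kept sites was 49.7 in Batf knockout and 48.8 in wild-type Treg cells, and at reduced sites 31.7 in Batf knockout and 47.4 in wild-type Treg cells. The counts depended on single libraries, with 10 lower without knockout replicate 1, 2 without knockout replicate 2, 1 without wild-type replicate 1 and 3 without wild-type replicate 2.

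The clearest of the 5 lay in Gnptab (chr10:88420680-88421080), an enzyme of lysosomal targeting. Foxp3 fell to 7.11 and 12.9 in Batf knockout Treg cells, against 58.6 and 63.5 in wild-type Treg cells (log2 fold change -2.55 ± 0.39, adjusted p = 1.6e-04), and the call held under every alternative run. BATF at this site was 90.6 and 68.6 in R397W Treg and 71.0 and 107 in control Treg libraries. In Twsg1, a secreted modulator of BMP signals (chr17:65929270-65929670), Foxp3 was 7.11 and 9.01 in Batf knockout and 35.4 and 25.9 in wild-type Treg cells (log2 fold change -1.80 ± 0.37, adjusted p = 0.0039, lost without wild-type replicate 1). In Ikzf3 it was 18.3 and 5.15 in Batf knockout and 41.5 and 38.4 in wild-type Treg cells (log2 fold change -1.91 ± 0.44, adjusted p = 0.010), and the call was lost under DESeq2 and without knockout replicate 2 or either wild-type library. At Egln3 it was 29.5 and 15.4 in Batf knockout and 57.6 and 45.9 in wild-type Treg cells (log2 fold change -1.23 ± 0.33, adjusted p = 0.029), a call lost under 7 of 14 alternatives. The last of the 5, with no gene within 100000 bp (chr7:76047739-76048139), is named because it completes the count. It had 6.10 and 1.29 in Batf knockout and 17.2 and 15.9 in wild-type Treg cells (adjusted p = 0.025). The value of 1.29 is 1 read in knockout replicate 2. Unlike the other calls, that at this site was not followed through the alternatives. In all 5 the groups did not overlap.

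The 2 sites with more Foxp3 in Batf knockout cells were at Rtkn2 and at Ccr2. Near Rtkn2 (chr10:68066211-68066611) Foxp3 was 95.5 and 90.1 in Batf knockout and 40.4 and 38.4 in wild-type Treg cells (log2 fold change 1.21 ± 0.28, adjusted p = 0.010). Near Ccr2 (chr9:124079781-124080181) it was 266 and 151 in Batf knockout and 90.0 and 74.3 in wild-type Treg cells (log2 fold change 1.28 ± 0.32, adjusted p = 0.017). Both calls were lost when either of the wild-type libraries was left out and under quantile normalisation, and that at Ccr2 also without knockout replicate 1 and in a fit without a trend.

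Foxp3 was higher in effector than in central Treg cells at 17 of the 65 kept sites (26.2%) and lower at 1. Over all Foxp3 peaks 15% were higher and 10.8% lower. At reduced sites 403 of 643 (62.7%) were higher and 6 lower. The median log2 fold change was 0.19 at kept sites and 1.24 at reduced sites, and the median Foxp3 value at kept sites was 29.6 in effector and 22.7 in central Treg cells. Without effector replicate 2, 9 kept sites were called higher. The count of lower sites depended on the scaling and was 7 under quantile normalisation.

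The 3 sites with the smallest p were in Twsg1, at Egln3 and at a site on chromosome 2 with no gene within 100000 bp (chr2:48315237-48315637). In Twsg1, Foxp3 was 53.2 and 87.1 in effector and 10.7 and 11.9 in central Treg cells (log2 fold change 2.50 ± 0.37, adjusted p = 2.3e-05). At Egln3 it was 65.9 and 76.7 in effector and 13.3 and 20.8 in central Treg cells (log2 fold change 2.03 ± 0.33, adjusted p = 6.5e-05). At the site on chromosome 2 it was 59.6 and 76.7 in effector and 21.3 and 11.1 in central Treg cells (log2 fold change 2.06 ± 0.33). At all 3 the effector libraries stood well above the central libraries. Near Hs1bp3 (chr12:8351189-8351589) Foxp3 was 141 and 156 in effector and 54.6 and 50.4 in central Treg cells (log2 fold change 1.48 ± 0.25, adjusted p = 7.8e-05), while in the Batf knockout comparison it was 69.1 and 68.2 in knockout and 54.6 and 74.3 in wild-type cells and was not called. Rgs1, with 133 and 150 in effector and 111 and 140.1 in central Treg cells, and Btla, with 50.7 and 60.6 in effector and 69.3 and 93.4 in central Treg cells, did not pass. Each of the 5 sites that were lower in the Batf knockout was also among the 17 that were higher in effector cells, and neither of the 2 higher ones was. The same held for 140 of the 155 reduced sites that were lower in the knockout (90.3%) and for 206 of all 250 such Foxp3 peaks (82.4%).

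**Figure D4:**
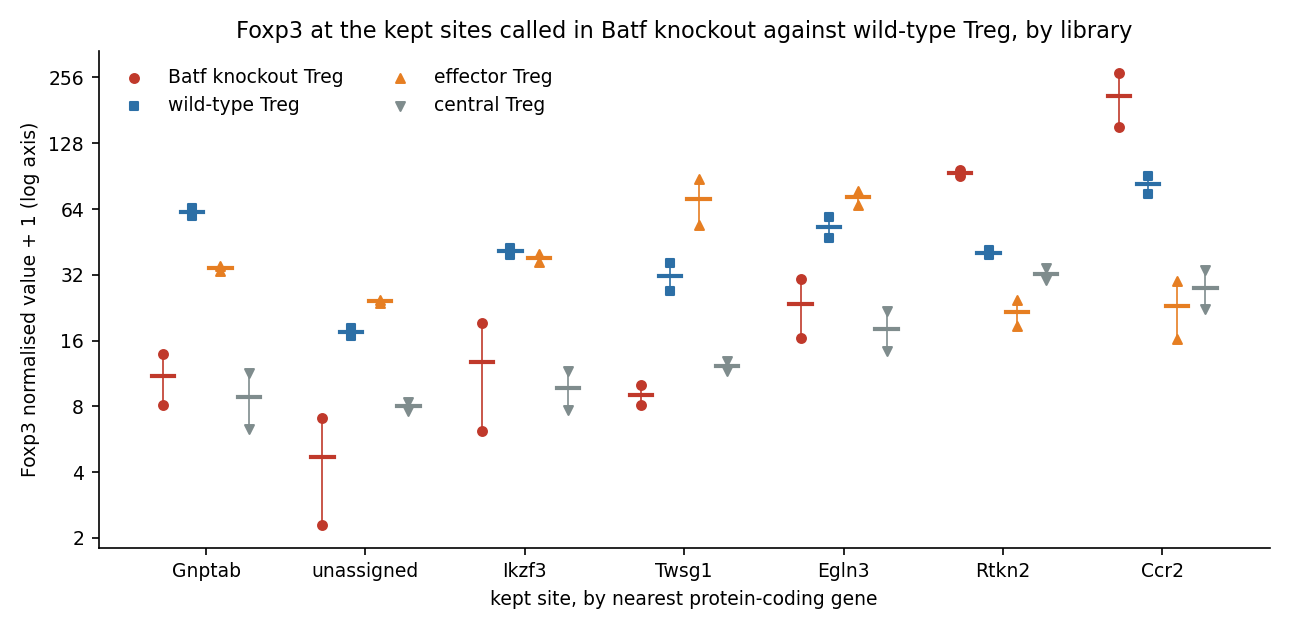
Foxp3 normalised value plus 1 (vertical, log axis) in each library at the 7 kept sites called in the Batf knockout comparison, with Batf knockout (red circles), wild-type (blue squares), effector (orange triangles) and central (grey triangles) Treg libraries and a bar at each mean of 2. From Gnptab to Egln3 the knockout libraries lie below the wild-type libraries and the central below the effector libraries, while at Rtkn2 and Ccr2 the knockout libraries are the highest.

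Kept and reduced sites differ in their Treg to Tconv ratio for BATF, so the counts were also read within bands of that ratio, which were chosen after the values were seen. At ratios of 2 to 3, IRF4 was higher in Treg cells at 11 of 60 kept sites (18.3%) and at 75 of 253 reduced sites (29.6%). At 3 to 5 it was higher at 13 of 36 (36.1%) and 193 of 305 (63.3%), and at 5 or more at 21 of 24 (87.5%) and 567 of 617 (91.9%). The share of kept sites with higher IRF4 thus was larger in each higher band of the Treg preference of BATF itself. Foxp3 was lower in the Batf knockout at 1 of 43 kept and 12 of 168 reduced sites at ratios of 2 to 3, at 2 of 16 and 39 of 167 at 3 to 5, and at 2 of 6 and 104 of 308 at 5 or more. Foxp3 was higher in effector cells at 10 of 43 kept and 60 of 168 reduced sites at ratios of 2 to 3, at 4 of 16 and 97 of 167 at 3 to 5, and at 3 of 6 and 246 of 308 at 5 or more. With 6 kept sites in the last Foxp3 band the shares there are imprecise, and no difference between the sets was tested.

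**Figure D5:**
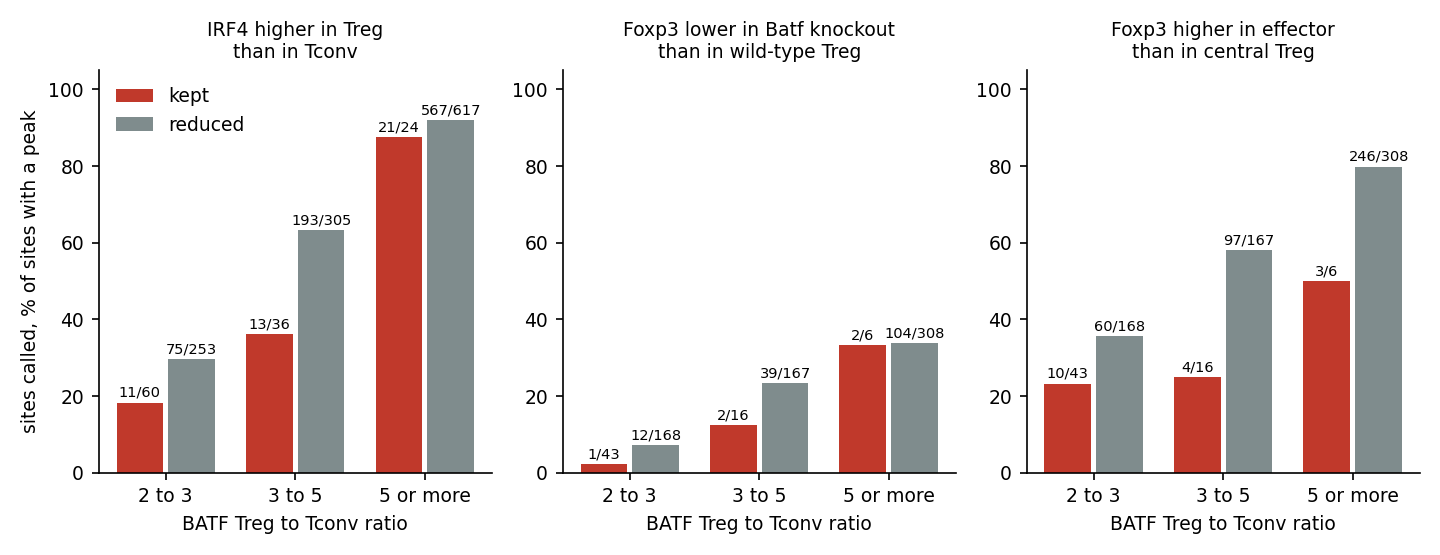
Share of sites called by limma, in percent of the sites with a peak of the factor (vertical axis, from 0), by band of the BATF Treg to Tconv ratio (horizontal axis), for kept (red) and reduced (grey) sites, with called over tested sites above each bar. For IRF4 the kept bars run from 18.3% at ratios of 2 to 3 to 87.5% at 5 or more, where the reduced bar is at 91.9%.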

How the data were processed

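The series holds 24 ChIP-seq libraries and 10 input libraries, which were not used here. The authors deposited 1 table of normalised peak scores per antibody and, for BATF, 2 tables. The deposited values are a signal per peak. Per the submitters' processing notes, the tools were DiffBind 3.12.0, edgeR 3.38.4, MACS2 2.2.7.1 and Bowtie2 2.4.1 and the build was mm10, without roles. Antibodies to BATF (a named clone) and Foxp3 (made in-house) are given per the labels, and none is named for IRF4. Tables were normalised separately and were fitted separately. A change common to most peaks would be scaled away. Total depth is unknown. In each library 100% of the values were whole multiples of the smallest step (tolerance 0.01), so reads in peaks were recovered. For the R397W controls, the numbers in the columns and in the titles differ, and only the group of each column was used. Peak coordinates are printed as in the tables, whose first base may be numbered 0 or 1.

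IRF4 and Foxp3 peaks overlapping a BATF site by at least 1 bp were tested by limma (3.58.1, R 4.3.3) after log2 transformation with a pseudocount of 1, fitted over the whole table with a mean-variance trend, two-sided, with Benjamini-Hochberg adjustment over all peaks of a table. The 8 Foxp3 libraries were fitted together. The fits were also run on simulated reads with known changes, and the outcome is not reported here. Alternatives were edgeR 4.0.16 and DESeq2 1.42.0 on recovered reads, other pseudocounts, scalings and filters, the replicate block and leaving out each library. Same-numbered IRF4 libraries correlated at 0.13, 0.035, 0.056 and 0.052 in their deviations from the group means, and different-numbered ones at -0.10 to 0.058. The labels do not state a pairing, and the numbers were not taken to pair samples. Promoter sequences are from RefSeq (GRCm38.p6). No genome was at hand, so the planned motif search was made in promoter windows only.

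The members and lists were chosen with earlier results of these data known. Named sites were the 10 with the highest control mean, the 5 highest for each ratio, those nearest to each threshold, the 5 genes with most kept sites, up to 3 genes per list, and up to 3 called sites per test and direction plus the 3 strongest with a peak. The lists were Treg core, effector Treg, central or naive T cell, AP-1, BATF and IRF factor, T helper lineage, T cell receptor and costimulation, and Foxp3 partner genes, and B cell, myeloid, CD8 and NK and housekeeping genes, of which the last had 0 kept sites. The site called lower in effector cells is not reported here beyond its count.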

Additional observations from a re-analysis of the deposited data

Results flagged for a closer look

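Among 60 groups of 4 IRF4 libraries at named kept sites, 4 had a library far from the other 3, and chance flags about 1 in 20 groups. Rgs1 stood at 57.4 in Tconv replicate 1, against 22.9 to 25.1 in the other Tconv libraries. The Myb site at chr10:21200282-21200682 had 0 in Tconv replicate 3 and 21.8 to 24.4 in the others. Gnptab had 74.8 in Treg replicate 3 and 94.6 to 96.8 in the others. The Prr5l site at chr2:101819388-101819788 had 18.6 in Tconv replicate 1 and 3.61 to 5.71 in the others.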

How the results depend on the processing

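The number of kept sites was 81 with an R397W to control ratio of at least 1, 93 with a control mean of at least 40, and 442 with the Treg libraries of Foxp3-IRES-hCD2 mice in place of the controls, 161 of them shared with the 214. Other settings gave 182 (pseudocount 5) to 267 (TMM), and leaving out each BATF library gave 198 to 295. The overlap with Foxp3 peaks was 19.8% at a ratio of at least 1, and that with IRF4 peaks 76.3% at a control mean of at least 40.

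For IRF4, 20 kept sites were higher at a ratio of at least 1, and leaving out single libraries gave 28 to 47 higher and 0 to 1 lower. DESeq2 and edgeR called 1 lower. For Foxp3 in the Batf knockout, a ratio of at least 1 left 0 higher and 2 lower, DESeq2 called 2 lower, the fit of only 4 libraries 3 lower, the fit without a trend 1 higher, and quantile normalisation 0 higher and 3 lower. Leaving out single libraries gave 0 to 2 higher and 1 to 10 lower. For effector against central Treg cells, a ratio of at least 1 left 6 higher and 0 lower, DESeq2 called 0 lower and quantile normalisation 7 lower. Leaving out single libraries gave 9 to 15 higher and 0 to 2 lower. With the replicate number as a block, IRF4 had 51 higher and 1 lower, the knockout 2 higher and 5 lower, and effector cells 18 higher and 2 lower. Same-numbered libraries are not stated to be paired, and correlated at 0.076 in the knockout and 0.14 in the effector comparison. With 2 libraries per group, different-numbered libraries must give the same value with the opposite sign, so these values have no separate baseline. For these moves the cause was not tested, except that a stricter ratio or control mean leaves fewer sites. Of 70 tests at single named sites, 30 passed the threshold, 14 of these lost the call under at least 1 alternative, and 11 others gained one. Where the main fit or the alternative made a call, 0 changed direction. Changes of direction without a call in either fit were not counted.

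With about 11 reads per kept site in the shallowest control library, single ratios are imprecise. A lone library left in a group was assumed to vary like the others.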
